A study of Rattus norvegicus with 2 samples.

Results

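The 10 genes described here encode purinergic receptors, the membrane proteins through which cells sense ATP, ADP and UDP outside the cell. They were taken from a list of P2X and P2Y receptor genes, P2rx2, P2rx3, P2rx4, P2rx6 and P2rx7 among the P2X genes and P2ry1, P2ry6, P2ry12, P2ry13 and P2ry14 among the P2Y genes. For each, the probe set with the highest mean over both arrays was kept among those that name a single gene, and each of the 10 had only 1 such probe set. They are 10 of the 18166 genes measured. The values come from the spinal cord (SC) at lumbar levels L4-L6, taken 10 days after surgery from male adult rats of the Sprague-Dawley strain. In the chronic constriction injury (CCI) group, the left sciatic nerve carried 4 loose ligatures, and in the Sham group the nerve was exposed without being tied. RNA of 3 rats per group was mixed and hybridised to 1 Affymetrix Rat Gene 2.0 ST array per group. The side of the cord that was taken is not given in the sources used here.

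P2X receptors are cation channels that open when ATP binds, and they assemble from 3 subunits, alike or mixed. P2Y receptors are G protein-coupled receptors for adenine and uracil nucleotides and nucleotide sugars. In the SC, P2X2, P2X3 and P2X6 are known from neurons and from the endings of sensory fibres, whereas P2X4, P2X7, P2Y6, P2Y12 and P2Y13 are known from microglia, the resident macrophages of nervous tissue. After peripheral nerve injury, microglia respond to nucleotides through these receptors, and P2X4, P2X7 and P2Y12 have been studied for their part in neuropathic pain.

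Values are log2 expression after robust multi-array average (RMA) normalisation, and a difference is the CCI value minus the Sham value on the log2 scale. With 1 array per group there is no replicate error and no test, and every difference compares 2 mixtures of RNA. Differences over all genes had a median of -0.01 and an SD of 0.26. In the 261 genes with exactly 2 probe sets, the differences given by the pair were apart by a median of 0.15, with a 90th percentile of 0.47. As a rough background level, the 95th percentile of 1345 olfactory and vomeronasal receptor genes was 4.36 in the CCI array and 4.44 in the Sham array. In tissue RNA, more cells of a type and more RNA per cell cannot be told apart.

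P2ry13, P2ry6 and P2ry12 were higher in the CCI array, whereas the 5 P2X genes differed by little or were lower. Past 1.5-fold, the fold threshold of the study, were 2 of the 10 genes, P2ry13 (1.80-fold) and P2ry6 (1.58-fold), both higher in CCI, against 1.64% of all genes higher in CCI past that threshold. None of the 10 was lower past it, against 1.14% of all genes. Among the 9083 genes at or above the median level, 1.00% were higher past 1.5-fold, and 2 of the 7 receptor genes at these levels were. P2ry6 is among these 7 only through its CCI value, since its Sham value of 5.56 lies under the median level of 5.83. The 2 of 7 is thus not separate from the 2 of 10. At 2-fold, 0 of the 10 passed, against 0.314% of all genes in either direction. At 1.2-fold, 4 of the 10 passed, P2ry13, P2ry6 and P2ry12 higher and P2rx2 lower in CCI, against 24.6% of all genes in either direction. Of the 10, 6 were higher in CCI and 4 lower, against 47.6% of all genes higher, and their median difference was 0.07. The 5 P2Y genes had a median of 0.46 and ranged between -0.05 and 0.85, and the 5 P2X genes had a median of -0.003 and ranged between -0.38 and 0.07. P2ry14 was at or below the background level in both arrays, and the other 9 were above it in both.

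**Figure D1:**
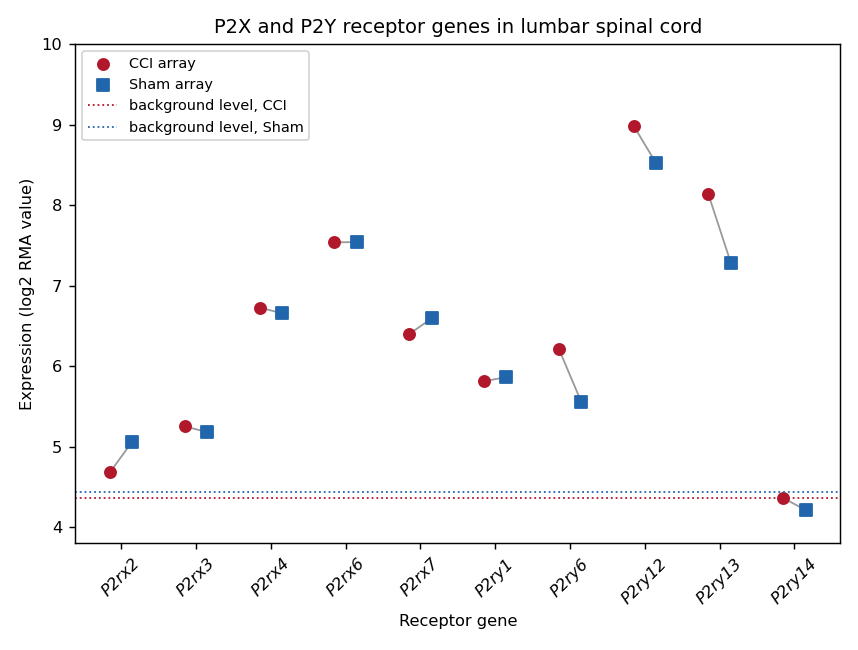
Log2 RMA value of each receptor gene in the CCI array (red circles) and the Sham array (blue squares), 1 array per group, with the background level of each array as a dotted line; heights of different genes come from different probes and are not comparable. The CCI point stands clearly above the Sham point for P2ry6, P2ry12 and P2ry13 and below it for P2rx2, while P2ry14 lies on the background lines.

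P2ry13 encodes a receptor for ADP that couples to Gi proteins. It was at 8.13 in the CCI array and 7.28 in the Sham array, the largest difference among the 10 genes, at 0.85, or 1.80-fold. It ranked 87th from the top of all 18166 genes. Of the 500 genes closest to its mean level, whose differences had an SD of 0.21, 3 differed as much or more in the same direction. Few genes measured at a like level thus differed as much as P2ry13.

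P2ry12 encodes a further ADP receptor, Gi-coupled, that microglia use to extend their processes towards released nucleotides and that platelets also carry. It was at 8.98 in the CCI array and 8.52 in the Sham array, a difference of 0.46, or 1.38-fold, which did not pass 1.5-fold. Of the 500 genes nearest to it in level, 6 differed as much or more in that direction. The difference was about as large as the 90th percentile of the gap between probe sets of 1 gene. Of the platelet genes among the blood cell markers, Ppbp was at 3.82 in CCI and 3.85 in Sham and Itga2b at 3.92 in CCI and 3.98 in Sham, all under the background level, and Gp9 was at 4.73 in CCI and 4.48 in Sham.

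P2ry14, a receptor for UDP-glucose and other UDP-sugars, is the third gene of this group. It was at 4.36 in the CCI array and 4.21 in the Sham array, at or below the background level in both, so no fold is given. The difference of 0.15 was matched or passed by 195 of the 500 genes nearest in level.

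These 3 genes lie close together on rat chromosome 2 in the RefSeq annotation (GRCr8), in the order P2ry14, P2ry13, P2ry12, and all 3 lie within the span of Med12l, a Mediator subunit gene. Med12l was at 7.32 in CCI and 7.63 in Sham, a difference of -0.31, which is opposite in sign to the differences of P2ry12 and P2ry13. P2ry14, at or below background in both arrays, is left out of this comparison. On one side of the cluster, Gpr171 was at 4.36 in CCI and 4.20 in Sham, both at or below background, and on the other Igsf10 was at 4.72 in CCI and 5.09 in Sham, neither past 1.5-fold. Whether the probe sets separate the strands of overlapping genes is not given in the sources used here. P2ry13 was the only measured gene of this group past 1.5-fold. The 250 bases before an annotated transcription start are shown for P2ry13, which differed most, and for P2ry14, which stands near it. The P2ry13 window is chr2:145622785-145623034 and the P2ry14 window chr2:145538511-145538760, both on the minus strand of GRCr8. Capitals mark the letters TTNNGNAA on either strand, a short form of the site of C/EBP factors, a family the study is concerned with.
P2ry13: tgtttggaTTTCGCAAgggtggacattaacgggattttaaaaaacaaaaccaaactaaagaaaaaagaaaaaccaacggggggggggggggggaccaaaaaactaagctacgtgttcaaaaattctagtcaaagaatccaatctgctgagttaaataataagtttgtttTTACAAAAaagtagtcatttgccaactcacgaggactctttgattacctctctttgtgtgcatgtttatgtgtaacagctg
P2ry14: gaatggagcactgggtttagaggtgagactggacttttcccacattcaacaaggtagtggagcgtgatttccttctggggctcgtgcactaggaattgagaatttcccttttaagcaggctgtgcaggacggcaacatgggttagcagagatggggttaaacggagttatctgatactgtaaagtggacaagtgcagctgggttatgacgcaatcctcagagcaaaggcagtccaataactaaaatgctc
The P2ry13 window held these letters at 2 places, 242 to 235 and 81 to 74 bases before the start. The P2ry14 window held none, but it held tgacgcaa, which departs from TTNNGNAA only by a g in place of a t. The contrast of the 2 windows thus depends on the short form used. Of all 33469 RefSeq windows of this length, 37.2% held TTNNGNAA at least once. Neither window held GAGGAA, the core letters of PU.1 sites, or the core of interferon response elements.

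**Figure D2:**
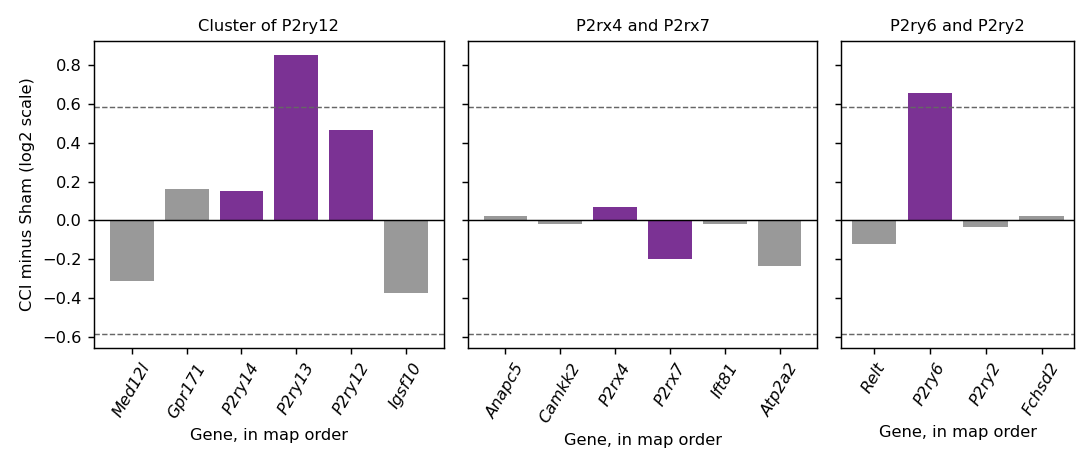
Difference between the CCI and Sham arrays (log2 scale, 1 array per group) for the measured genes beside P2ry12, P2rx4 and P2rx7, and P2ry6, in map order and not to scale, with the receptors described here in purple, their neighbours in grey and 1.5-fold as dashed lines. P2ry13 at 0.85 and P2ry6 at 0.66 pass the upper line, and no neighbour passes either line.

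P2ry6 encodes a Gq-coupled receptor for UDP, through which microglia take up debris. It was at 6.22 in the CCI array and 5.56 in the Sham array, a difference of 0.66, or 1.58-fold. It ranked 202nd of 18166 genes from the top, and 5 of the 500 genes nearest in level differed as much or more in that direction. Next to it on chromosome 1 lies P2ry2, a receptor for ATP and UTP, which was at 5.58 in CCI and 5.62 in Sham. The gene on the far side of P2ry2, Fchsd2, was at 7.77 in CCI and 7.75 in Sham. On the other side of P2ry6, the nearest gene measured, Relt, differed by -0.12. No measured gene beside P2ry6 thus differed past 1.5-fold.

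P2ry1, a Gq-coupled ADP receptor of neurons and astrocytes among other cells, was at 5.81 in the CCI array and 5.86 in the Sham array. The difference of -0.05 was close to the median over all genes. Rap2b, the gene after it on chromosome 2, was at 6.03 in CCI and 5.82 in Sham. P2ry1 thus stood apart from the ADP receptors P2ry12 and P2ry13, which had differences of 0.46 and 0.85.

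P2rx4 encodes the channel through which ATP acts on microglia in nerve injury models, and P2rx7 the channel that opens at high ATP and is upstream of the NLRP3 inflammasome. P2rx4 was at 6.73 in the CCI array and 6.66 in the Sham array, a difference of 0.07, or 1.05-fold. P2rx7 was at 6.40 in the CCI array and 6.59 in the Sham array, a difference of -0.20, or 1.15-fold lower in CCI. Neither difference was unusual for its level. Of the 500 nearest genes, 142 were at least as far up as P2rx4 and 116 at least as far down as P2rx7.

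The pair is adjacent on chromosome 12, between Camkk2 and Ift81. Camkk2 was at 6.54 in CCI and 6.56 in Sham and Ift81 at 6.67 in CCI and 6.68 in Sham, and 2 genes away Anapc5 differed by 0.02 and Atp2a2 by -0.24. None of the genes of this locus differed past 1.5-fold. Camkk2 overlaps P2rx4 in the annotation. The 250 bases before the start are shown for both as the pair of microglial P2X genes. The P2rx4 window is chr12:39523090-39523339 and the P2rx7 window chr12:39594923-39595172, both on the minus strand of GRCr8. Capitals mark GAGGAA, the core of sites of the myeloid factor PU.1.
P2rx4: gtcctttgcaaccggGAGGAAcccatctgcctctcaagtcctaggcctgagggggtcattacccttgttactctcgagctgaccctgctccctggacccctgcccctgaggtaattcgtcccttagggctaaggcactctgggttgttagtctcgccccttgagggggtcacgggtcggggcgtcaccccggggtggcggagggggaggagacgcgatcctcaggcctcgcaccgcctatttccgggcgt
P2rx7: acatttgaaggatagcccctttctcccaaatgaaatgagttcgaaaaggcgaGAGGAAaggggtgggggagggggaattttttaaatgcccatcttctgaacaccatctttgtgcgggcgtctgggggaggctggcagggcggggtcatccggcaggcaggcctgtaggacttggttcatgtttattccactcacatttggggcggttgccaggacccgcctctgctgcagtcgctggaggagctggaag
The letters stood 235 to 230 bases before the start in P2rx4 and 198 to 193 bases before it in P2rx7, and 23.3% of all 33469 windows held them on either strand. Windows were found for 7 of the 10 genes, with 2 for P2rx3, and not for P2rx2, P2ry6 and P2ry12. Of the 8 windows, 3 held GAGGAA, that of P2rx6 being the third, 1 held TTNNGNAA and 0 held the interferon response core, which 3.41% of all windows hold. These matches are descriptions of letters and were not related to the differences by a test.

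Of the P2X genes of neurons, P2rx2 had the lowest difference of the 10 genes. P2rx2 encodes a subunit of slowly desensitising channels and was at 4.68 in the CCI array and 5.06 in the Sham array, a difference of -0.38, or 1.30-fold lower in CCI. Of the 500 genes nearest in level, 32 were at least as far down, so P2rx2 lay within the usual range for a gene this close to background. Lrcol1 overlaps P2rx2 in the annotation, and on the other side Pole differed by -0.08 and Pxmp2 by 0.21.

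P2rx3, the subunit of sensory neurons that detect painful stimuli, was at 5.25 in the CCI array and 5.18 in the Sham array, a difference of 0.07. The mRNA of P2rx3 is known mainly from sensory ganglia, whose cell bodies lie outside the cord. Of the 15 measured markers of sensory ganglion neurons, 8 were higher in CCI and 7 lower (median difference 0.08). Their summed linear level was 2894 in CCI and 2576 in Sham. The brightest marker, Sncg, at 10.27 in CCI and 10.02 in Sham, weighs most in this sum. Scn9a, a sodium channel of nociceptors, was the 1 gene of this list past 1.5-fold, at 6.16 in CCI and 4.85 in Sham, or 2.49-fold higher in CCI, and the neuropeptide gene Calcb was 1.32-fold higher. Scn10a, another such channel, was at 4.51 in CCI and at 4.26, under the background level, in Sham. The sodium channel gene Scn11a went the other way, at 4.25, under the background level, in CCI and at 4.47 in Sham. Trpa1 was under background in both arrays. The part of ganglion RNA in the P2rx3 values was not tested. Ssrp1 overlaps P2rx3 in the annotation and was at 7.45 in CCI and 7.50 in Sham, and Tnks1bp1 after it differed by -0.40.

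P2rx6, a subunit that forms channels mainly together with other P2X subunits, was at 7.54 in both arrays. The difference of -0.003 was the smallest in size of the 10 genes, and P2rx6 turned to 0.01 after subtraction of the median difference and to 0.05 after that of the intensity trend. Of the genes near it, Slc7a4 differed by -0.29 and Thap7 by -0.01. Smpd4, beyond Slc7a4, was at 6.49 in CCI and 7.07 in Sham, a difference of -0.57, not past 1.5-fold. Markers of neurons were lower in CCI in 16 of 16 cases. Their median difference was -0.26, and 2 passed 1.5-fold, while the neuronal nuclear gene Rbfox3 was at 9.42 in CCI and 9.57 in Sham. P2rx6 and P2rx3 did not share this lower level, while the difference of P2rx2 lay below the median of the neuronal markers. P2rx2 and P2rx3 were dimmer than all 16 neuronal markers, and RMA understates folds of dim genes, which limits this comparison for both.

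**Figure D3:**
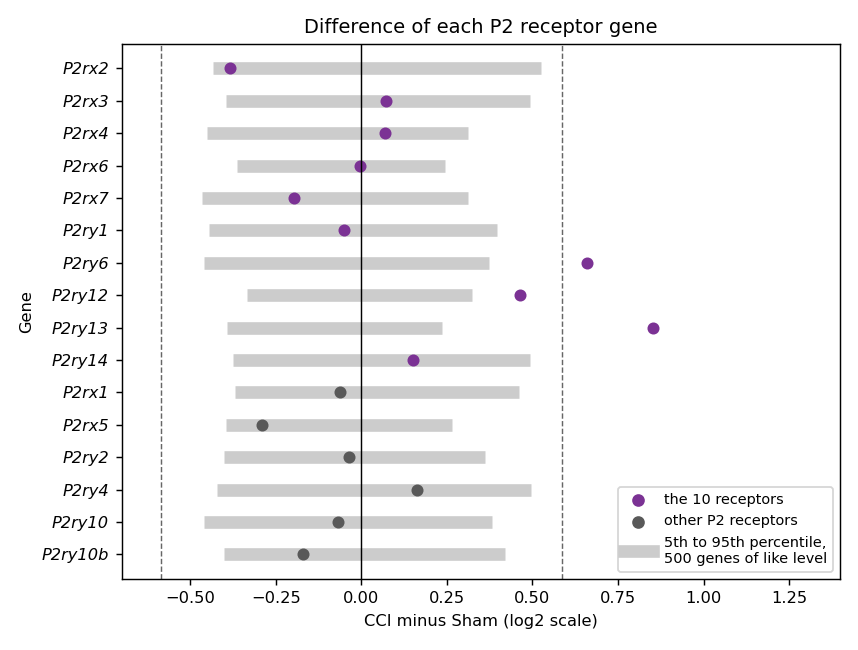
Difference between the CCI and Sham arrays (log2 scale, 1 array per group) for the 10 receptor genes (purple) and 6 other P2 receptor genes (grey), with the 5th to 95th percentile of the 500 genes nearest in level as a grey bar and 1.5-fold as dashed lines. P2ry6, P2ry12 and P2ry13 lie to the right of their bars at 0.66, 0.46 and 0.85, and the other genes lie within theirs.

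Other P2 receptor genes, outside the 10, showed no large difference, and 0 of 6 passed 1.5-fold, with a median of -0.07. P2rx5, a subunit of neuronal channels among others, was at 6.98 in CCI and 7.27 in Sham, or 1.22-fold lower in CCI. P2rx1, P2ry4, P2ry10 and P2ry10b were at or below the background level in both arrays. Over the 16 P2 receptor genes measured, the 2 past 1.5-fold were therefore P2ry13 and P2ry6.

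Markers of microglia were higher in the CCI array, and P2ry6, P2ry12 and P2ry13, but not P2rx4 and P2rx7, had differences near theirs. Of 26 measured markers, none of which is among the 10 receptors, 24 were higher in CCI and 15 passed 1.5-fold, with a median of 0.71 against -0.01 over all genes. Aif1, which encodes the microglial protein IBA1, was at 7.91 in CCI and 6.50 in Sham, and the astrocyte gene Gfap was at 11.57 in CCI and 11.21 in Sham. The summed linear level of the microglial markers was 7861 in CCI and 4437 in Sham, and 0 of the 26 lay at or under background in both arrays. The difference of P2ry13 exceeded those of 15 of the 26 markers, that of P2ry6 those of 12 and that of P2ry12 those of 10, so these 3 receptors lay well inside the range of the markers. The difference of P2rx4 exceeded those of 4 markers, and that of P2rx7 exceeded only that of Fcrl2, at -0.36. The difference of P2rx4 was 0.65 below the microglial median and that of P2rx7 0.91 below it. Other markers near P2rx4 and P2rx7 at the low end were Sall1 at -0.03, Siglec5 at 0.04 and Selplg at 0.06. Microglial markers thus differed among themselves, and the part that the number of microglia plays in the receptor values was not tested. Markers of border macrophages, which also carry some P2 receptors, were lower in 6 of 8 cases, with a median of -0.21 and 0 past 1.5-fold.

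Receptors related to P2Y by sequence or position also differed among themselves. Gpr34, a lysophosphatidylserine receptor that is also on the microglia list, was at 7.63 in CCI and 6.50 in Sham, or 2.18-fold higher in CCI. Lpar6, a receptor for lysophosphatidic acid, was at 7.15 in CCI and 6.87 in Sham. Gpr17, a receptor of oligodendrocyte precursors, was at 8.91 in CCI and 9.11 in Sham, and it is 1 of 6 markers of these cells, all 6 of which were lower in CCI. Sucnr1, the succinate receptor, lay under background in both arrays. Of the 8 measured, only Gpr34 passed 1.5-fold.

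Genes that supply the ligands of these receptors differed by small amounts. Of 12 genes of ATP release, 5 were higher and 7 lower in CCI, 0 passed 1.5-fold and the median was -0.04. Slc17a9, the vesicular nucleotide transporter that loads ATP into vesicles, was at 5.34 in CCI and 4.97 in Sham, or 1.30-fold higher in CCI. Panx1, which forms a channel that releases ATP, was at 4.86 in CCI and 4.95 in Sham. The scramblase gene Ano6 (1.25-fold lower) and the astrocyte connexin gene Gja1 (1.11-fold lower) were lower in CCI, and Calhm2 was at 4.39 in CCI and 4.20 in Sham, close to the background level. Slc17a9 thus had the largest difference of this list, below 1.5-fold.

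Enzymes that remove nucleotides showed no difference past 1.5-fold. Of 16 genes that break down nucleotides or use adenosine, 5 were higher and 11 lower in CCI, and the median was -0.10. Enpp1 (1.38-fold lower), Enpp3 (1.23-fold lower) and Entpd6 (1.23-fold lower) hydrolyse nucleoside phosphates and had the lowest differences. Nt5e, which encodes the enzyme CD73 that makes adenosine from AMP, was at 6.85 in CCI and 7.04 in Sham. Acp3, another enzyme that makes adenosine in sensory neurons, was under background in both arrays. Entpd1, the microglial ectonucleotidase, was not analysed here.

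Of 11 adenosine receptor and transporter genes, 5 were higher and 6 lower in CCI, and 0 passed 1.5-fold. Adora3, the A3 receptor, was at 5.06 in CCI and 4.62 in Sham, or 1.36-fold higher in CCI, by the brighter of its 2 probe sets. The dimmer set gave a difference of -0.08 for Adora3 and the mean of both 0.18, so its direction depends on the probe set. Adora1, the A1 receptor by which adenosine dampens transmission in the dorsal horn, was at 9.05 in CCI and 9.17 in Sham. Slc29a2, an adenosine transporter, was 1.38-fold lower in CCI. Slc28a2 was under background in both, and Slc28a1 was at 4.40 in CCI and 4.04 in Sham, close to it. The list median was -0.12.

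**Figure D4:**
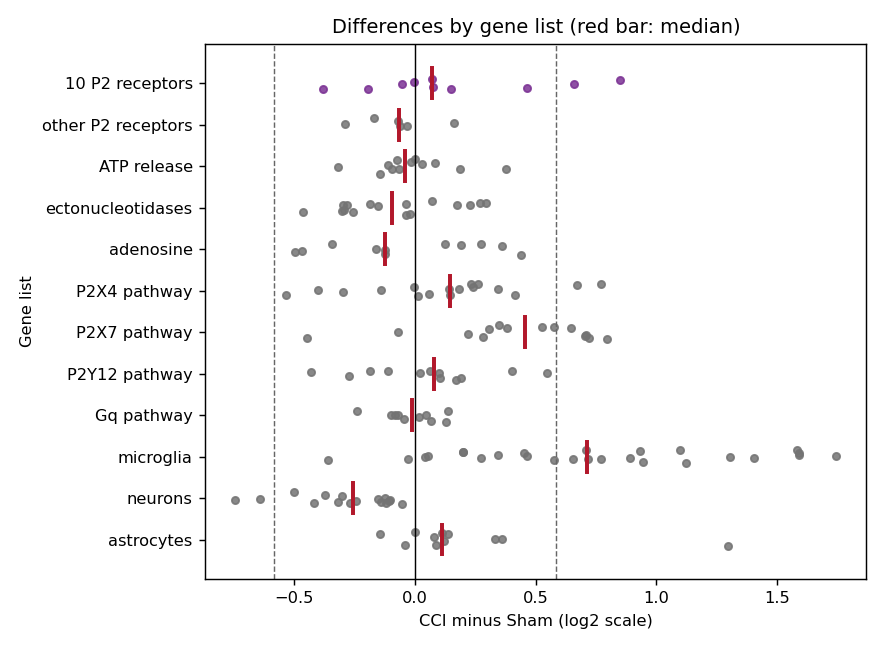
Difference between the CCI and Sham arrays (log2 scale, 1 array per group) for each measured gene of the receptor group and of 11 gene lists, with the median of each as a red bar and 1.5-fold as dashed lines. The microglia list has the highest median at 0.71, followed by the P2X7 pathway at 0.46, and the 10 receptors, at 0.07, are spread between -0.38 and 0.85.

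Of 14 measured genes of the P2X7 pathway, which include some that act beside the receptor such as Tlr4, 12 were higher in CCI and the median difference was 0.46, while P2rx7 differed by -0.20. Past 1.5-fold were 5 of them, all higher, against 1.64% of all genes, and 9 did not pass. The inflammasome protease gene Casp1 was at 6.19 in CCI and 5.40 in Sham, and the cytokine gene Il18 was at 5.79 in CCI and 5.06 in Sham. The others past the threshold were Cx3cr1 (1.64-fold), the microglial receptor of fractalkine, Tmem176b (1.63-fold), an ion channel gene tied to the inflammasome, and Pycard (1.57-fold), the inflammasome adaptor. Nlrp3 was at 4.55 in CCI and 4.16 in Sham, the Sham value below the background level, which gives a fold of at least 1.08. The lower genes were Cx3cl1, which encodes fractalkine, the ligand of Cx3cr1, and was at 8.90 in CCI and 9.34 in Sham, and Myh9 at -0.07. Il1b was under background in both arrays, at 3.44 in CCI and 3.22 in Sham. Cx3cr1 and Ctss are also on the microglia list, and without them 4 of 12 genes passed 1.5-fold and the median was 0.37. The part that the number of microglia plays in the values of these 12 genes was not tested.

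For P2X4, the genes that regulate it or act downstream of it gave smaller differences. Of 17 measured, 12 were higher in CCI and 2 passed 1.5-fold, Csf1r (1.71-fold), the microglial growth factor receptor, and the kinase gene Lyn (1.59-fold). Irf8 and Irf5 encode factors known to raise P2rx4 in spinal microglia. Irf8 was at 6.49 in CCI and 6.14 in Sham, and Irf5 at 6.09 in CCI and 5.68 in Sham, so both were higher by less than 1.5-fold beside a near-level P2rx4. Bdnf, the neurotrophin that microglia release upon P2X4 activation, was at 5.72 in CCI and 5.66 in Sham. Itga5, a subunit of the fibronectin receptor, had the lowest difference of the list and was 1.45-fold lower in CCI. The list median was 0.14. Csf1r and Irf8 are also on the microglia list, and without them 1 of 15 genes passed 1.5-fold, and the ratio of summed linear levels, CCI over Sham, was 1.01 against 1.10 with them.

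Genes of signalling by the P2Y receptors showed no difference past 1.5-fold. Of 12 genes of the Gi pathway used by P2Y12, 8 were higher in CCI (median 0.08). Rgs10, a microglial regulator that shortens Gi signals, was at 7.98 in CCI and 7.43 in Sham, or 1.46-fold higher in CCI, and the small GTPase gene Rap1b was 1.32-fold higher by the brightest of its 3 probe sets. The mean of the 3 gave 0.23 for Rap1b on the log2 scale. The adenylyl cyclase genes Adcy7 (1.35-fold lower) and Adcy3 (1.21-fold lower) were lower in CCI. Kcnk13, the potassium channel that P2Y12 opens, was not analysed here. Of 10 genes of the Gq pathway used by P2Y1 and P2Y6, 5 were higher and 5 lower, with a median of -0.01. Largest in size were the differences of the phospholipase genes Plcb4 (-0.24) and Plcb3 (-0.10), the kinase gene Prkcd (0.14) and Itpr2 (0.13), a calcium release channel gene.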

How the data were processed

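The deposited values are log2 expression values that the authors made by RMA from 2 Affymetrix Rat Gene 2.0 ST arrays, 1 for CCI and 1 for Sham. RMA subtracts background, makes the arrays' distributions alike and sums up the probes of a set, so that folds of dim genes are understated and a shift of most genes could not be seen. Groups come from the sample titles, where CCI is called the model. Scanner files, protein sequences and a genome were not used here. Of 28879 probe sets, 18511 name 1 gene in the platform annotation, whose build is not given in the sources used here. Symbols were updated by Entrez ID in the RefSeq gene table of GRCr8, which held 18394 of them, and the probe set with the highest mean was kept per gene, leaving 18166 genes. Where 1 value lay at or below background, a fold is a lower bound, and where both did, none is given. Lowess trends used a span of 0.3. Promoter windows are from RefSeq (GRCr8), cut to the 250 bases before each start. Python 3.11.15, pandas 2.3.3 and statsmodels 0.14.6 were used, and the counting was tested on simulated data.

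The receptors and the 21 gene lists were chosen with earlier results of these data known. Genes named are the 10 receptors, other P2 receptors, flanking genes on a list, and of each purinergic or pathway list those past 1.5-fold and the 4 with the largest difference, plus a few fixed by role. Smpd4, a flanking gene outside the list, was added with its value in view. Marker genes singled out for platelets, ganglion neurons and low microglial differences were picked with their values in view. The number of arrays limits the precision.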

Additional observations from a re-analysis of the deposited data

How the results depend on the processing

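The count of 2 receptor genes past 1.5-fold was also 2 after subtraction of an intensity trend or of the median difference. It was 2 among the 7 genes at or above the median level, where P2ry6 is kept only through its CCI value. It was 2 as well among the 9 above background, which leave out only P2ry14. P2ry14 did not pass 1.5-fold, so that count could not change. Taking the mean or the dimmest of a gene's probe sets could change nothing here, since each receptor has 1. At a threshold of 2-fold the count was 0, and at 1.2-fold it was 4, 3 higher and 1 lower in CCI. The number of genes at or below background in both arrays, 1 with the 95th percentile of the olfactory and vomeronasal genes, was 0 with the 90th and 3 with the 99th. These 3 were P2ry14, P2rx2 and P2rx3, so with the 99th percentile no fold would be given for P2rx2 and P2rx3. The median over the 10 genes, 0.07, was 0.08 after either subtraction. Trend subtraction moved 5 of the 10 single differences by over 0.05 and up to 0.06 (P2rx4, P2rx6, P2rx7, P2ry13 and P2ry14), and P2rx6 changed sign under both subtractions. Among the 10 purinergic, pathway and neighbour lists, medians changed sign for the Gq list (0.03) and the genomic neighbours (0.04) after trend subtraction and for the related receptors without genes at background (-0.0004). Of the cell marker lists, the medians of blood cells (0.37 without genes at background) and of meninges and fibroblasts (0.0009 after trend subtraction, 0.01 without genes at background) turned positive. No paired analysis was possible because each group has 1 array. The difference of P2ry12, 0.46, is about the size of the 90th percentile, 0.47, of the gap between probe sets of 1 gene.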
